A study of Mus musculus with 4 samples.

Results

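Late neutrophil granule and calprotectin genes are genes that a neutrophil expresses as it matures in the bone marrow. The set consists of 10 genes chosen by name, S100a8, S100a9, Camp, Ngp, Ltf, Lcn2, Chi3l3, Retnlg, Mmp8 and Mmp9, out of 17507 gene names in the tables, and all 10 had transcripts. They were followed in single cells from the bone marrow of C57BL/6 mice, dissociated with collagenase IV and dispase. The cells lacked CD51, the integrin alpha V chain, and were sorted either as CD44+ or as CD44-, where CD44 is a receptor for hyaluronan. The labels call both sorts TNCs, an abbreviation they do not spell out, and the age, sex and number of the mice are not stated.

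SORT-seq, a plate method that gives each well a cell barcode and each transcript a molecular identifier, was run on 4 plates of 384 wells. Library 1 of each sort is a plate of its own. Libraries 2 and 3 are the upper 8 rows (CD44+) and the lower 8 rows (CD44-) of plates that held both sorts. A well with at least 1000 transcripts was kept as a cell, which left 343 of 1536 wells, and the 1193 wells below that minimum served as the background. The CD44+ libraries held 56, 95 and 87 kept wells with 149707, 1118722 and 1707318 transcripts, and the CD44- libraries held 44, 24 and 37 kept wells with 97041, 101367 and 158763 transcripts. Median transcripts per kept well were 1994, 5162 and 11225 in CD44+ and 1848, 1795 and 2544 in CD44-, so the sorts differed in depth on the shared plates. Wells of low quality, in which Kcnq1ot1 and its companion transcripts took at least 10% or mitochondrial genes at least 50%, made up 53.6%, 41.1% and 23.0% of kept wells in CD44+ and 40.9%, 4.17% and 10.8% in CD44-. Levels are given as CPM, transcripts scaled to the total of a library, and levels of different genes were not compared with each other.

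Neutrophils mature in the marrow through stages that load their granules in sequence. Primary granules, with myeloperoxidase and elastase, are filled first, secondary (specific) granules next and gelatinase granules last. S100a8 and S100a9 encode the paired subunits of calprotectin, a calcium- and zinc-binding protein that fills the neutrophil cytosol. Camp encodes the antimicrobial peptide precursor cathelicidin, Ngp the neutrophilic granule protein, Ltf the iron-binding lactoferrin and Lcn2 the siderophore-binding lipocalin 2, all stored in secondary granules. Chi3l3, which RefSeq and GENCODE now name Chil3, encodes the chitinase-like protein Ym1. Retnlg encodes a resistin-like protein, Mmp8 the neutrophil collagenase and Mmp9 gelatinase B.

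The genes lie on 4 chromosomes in GRCm38 (mm10; GENCODE vM21). S100a8 at chr3:90668978-90670035 (forward strand) and S100a9 at chr3:90692632-90695721 (reverse strand) are neighbours, with 22.6 kb and 0 annotated genes between them, and Chi3l3 is at chr3:106147554-106167564 (reverse). Camp is at chr9:109847379-109849617 (reverse), Ngp at chr9:110419747-110423012 (forward) and Ltf at chr9:111019271-111042767 (forward). These 3 granule genes share a stretch of chromosome 9, with gaps of 570 kb and 596 kb that hold 22 and 29 annotated genes. Mmp8 is at chr9:7558456-7568485 (forward), Lcn2 at chr2:32384633-32388252 (reverse), Mmp9 at chr2:164940780-164955850 (forward) and Retnlg at chr16:48872621-48874496 (forward).

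Promoters were read for 9 of the 10 genes from RefSeq (GRCm38.p6), each from 250 bases before the transcription start to 50 bases after it. Mmp9 had none in that table. A C/EBP motif, TTNNGNAA, searched on both strands, was present in 8 of the 9 promoters and in 40.7% of all 32851 promoters of this length. A PU.1 motif, GAGGAAGT, was present in 2 of the 9 and in 3.20% of all. Neutrophil precursors use transcription factors of the C/EBP family and the transcription factor PU.1. A match is a string of letters and no measured binding site. Camp was the promoter without either motif in this window. The promoters below are shown because their genes stand for the patterns found across wells, the calprotectin pair (S100a8, S100a9), a secondary granule gene (Ngp) and a gene of the latest group (Mmp8). They are written 5′ to 3′ on the strand of the gene, and capitals mark every match to either motif. S100a8 is at chr3:90668821-90669120 (forward), S100a9 at chr3:90695672-90695971 (reverse), Ngp at chr9:110419558-110419857 (forward) and Mmp8 at chr9:7558179-7558478 (forward).
S100a8: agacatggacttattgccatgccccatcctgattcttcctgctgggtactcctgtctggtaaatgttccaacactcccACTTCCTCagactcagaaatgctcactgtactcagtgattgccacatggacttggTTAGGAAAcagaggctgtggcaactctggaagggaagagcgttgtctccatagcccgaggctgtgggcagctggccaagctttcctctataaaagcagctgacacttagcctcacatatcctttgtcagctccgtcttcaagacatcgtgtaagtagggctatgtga
S100a9: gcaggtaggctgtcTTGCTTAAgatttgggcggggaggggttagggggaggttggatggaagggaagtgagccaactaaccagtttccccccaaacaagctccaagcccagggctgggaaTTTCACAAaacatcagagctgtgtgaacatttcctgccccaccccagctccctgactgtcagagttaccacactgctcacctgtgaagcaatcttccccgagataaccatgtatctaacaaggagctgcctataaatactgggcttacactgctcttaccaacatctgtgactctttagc
Ngp: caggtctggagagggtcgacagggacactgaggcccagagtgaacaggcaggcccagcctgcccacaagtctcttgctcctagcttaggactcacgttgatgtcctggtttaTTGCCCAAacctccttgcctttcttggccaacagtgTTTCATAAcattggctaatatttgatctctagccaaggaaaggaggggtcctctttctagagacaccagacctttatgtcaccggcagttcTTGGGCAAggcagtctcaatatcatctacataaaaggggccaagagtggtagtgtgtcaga
Mmp8: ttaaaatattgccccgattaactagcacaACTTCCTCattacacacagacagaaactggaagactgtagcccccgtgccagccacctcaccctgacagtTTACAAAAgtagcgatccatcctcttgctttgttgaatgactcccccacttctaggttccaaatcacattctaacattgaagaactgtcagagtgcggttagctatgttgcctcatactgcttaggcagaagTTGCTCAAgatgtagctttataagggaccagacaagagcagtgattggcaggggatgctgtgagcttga
The promoter of S100a8 held 1 C/EBP match and 1 PU.1 match, that of S100a9 held 2 C/EBP matches, that of Ngp 3 and that of Mmp8 2 C/EBP matches and 1 PU.1 match.

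The first comparison asked whether the late neutrophil genes differ in level between the CD44+ and CD44- sorts. Their summed level was 4907, 11038 and 7945 CPM in CD44+ libraries 1 to 3, against 26950, 36650 and 958 CPM in CD44- libraries 1 to 3. CD44- library 3 was the lowest of the 6 and the other CD44- libraries were the highest, so the ranges overlapped. Means were 7963 ± 3065 CPM in CD44+ and 21519 ± 18455 CPM in CD44- (SD, n = 3 libraries each), a log2 ratio of -1.43. Within the pairs of same-numbered libraries the log2 ratios of the sums were -2.46, -1.73 and 3.04, so the direction was opposite in the pair of libraries 3. Counted as transcripts per kept well, the sums were 13.1, 130 and 156 in CD44+, against 59.4, 155 and 4.11 in CD44-. On that scale the log2 ratio of the means was 0.45, in the opposite direction, and kept CD44+ wells held more transcripts in all on the shared plates.

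The calprotectin pair followed the sum. S100a8 had 172, 3387 and 4128 transcripts in CD44+, against 634, 712 and 34 in CD44-, which are 1148, 3028 and 2418 CPM against 6537, 7028 and 214 CPM. S100a9 had 1587, 3780 and 1985 CPM in CD44+, against 7799, 13184 and 151 CPM in CD44-. The ranges of the sorts overlapped for all 10 genes, while 9.22% of the 2463 genes tested had CD44+ below CD44- with no overlap and 16.8% had it above. For both calprotectin genes all 3 CD44+ libraries lay between the lowest and the next CD44- library. The log2 ratios of the pairs, taken after adding 10 CPM, were -2.50, -1.21 and 3.44 for S100a8 and -2.29, -1.80 and 3.63 for S100a9.

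The secondary granule genes placed the sorts in the same way. Camp had 638, 908 and 1646 CPM in CD44+, against 3507, 3557 and 202 CPM in CD44-. Ngp had 490, 1472 and 1288 CPM in CD44+, against 4808, 5308 and 265 CPM in CD44-. Ltf had 181, 551 and 133 CPM in CD44+, against 1521, 3062 and 31.5 CPM in CD44-. CD44- library 3 was again the lowest for each of them and the other CD44- libraries the highest. Lcn2 had 201, 572 and 248 CPM in CD44+, against 1374, 2003 and 81.9 CPM in CD44-, and Chi3l3 had 120, 173 and 221 CPM against 423, 475 and 12.6 CPM.

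Retnlg, Mmp8 and Mmp9 added a second pattern, since they were nearly missing from both sorts on the plate of libraries 3. Retnlg had 66, 388 and 3 transcripts in CD44+, against 61, 102 and 0 in CD44-, or 442, 346 and 1.76 CPM against 630, 1003 and 0 CPM. Mmp8 had 10, 176 and 6 transcripts in CD44+, against 19, 59 and 0 in CD44-. Mmp9 had 5, 57 and 1 transcripts in CD44+, against 15, 45 and 0 in CD44-. CD44+ library 3 thus joined CD44- library 3 at the low end for these genes, although S100a8 had 4128 transcripts in it. The 3 genes made up 11.04%, 5.03% and 0.0737% of the set's transcripts in CD44+ and 3.64%, 5.55% and 0% in CD44-, of 735, 12348 and 13565 transcripts against 2615, 3715 and 152. Per 100 transcripts of S100a8, Retnlg had 38.5, 11.4 and 0.0727 in CD44+ and 9.64, 14.3 and 0 in CD44-. In the wells below the minimum Retnlg had 71, 5 and 0 transcripts in CD44+ and 83, 14 and 0 in CD44-. Mmp8 had 16, 0 and 0 there in CD44+ and 15, 4 and 0 in CD44-, and Mmp9 had 9, 0 and 2 in CD44+ and 12, 3 and 0 in CD44-. For Mmp8 and Mmp9, on these few transcripts, CD44+ library 2 was no higher than CD44+ library 3, while for Retnlg it was.

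**Figure D1:**
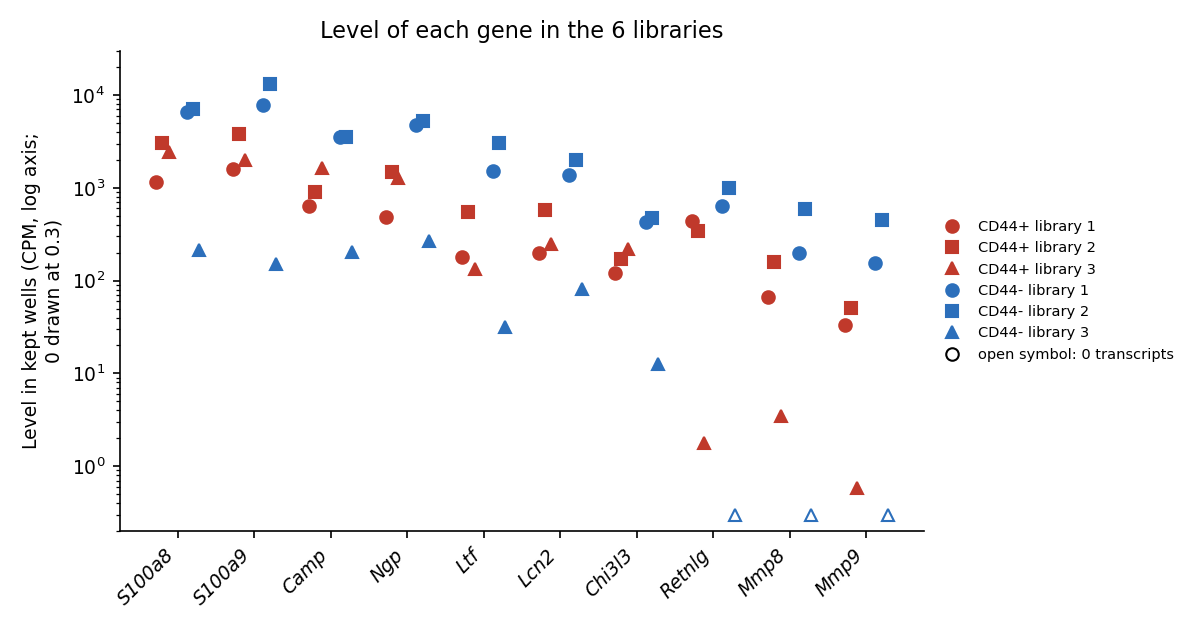
Level of each gene in kept wells, in CPM on a log axis, for the 3 CD44+ libraries (red, left) and the 3 CD44- libraries (blue, right), with open symbols for 0 transcripts drawn at 0.3. CD44- library 3 (blue triangles) is the lowest for every gene, and CD44+ library 3 (red triangles) drops with it for Retnlg, Mmp8 and Mmp9.

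No gene of the set was called different between the sorts. The quasi-likelihood test of edgeR, on transcripts summed per library, tested 2463 genes and called 25 of them at an adjusted p under 0.05, which is 1.02% of genes, 24 lower and 1 higher in CD44+. Of the 10 genes, 9 passed the filter on low counts and Mmp9 did not, and 0 of the 9 were called or had an unadjusted p under 0.05, against 470 of all genes (19.1%). All 9 fitted log2 differences were below 0, with a median of -1.68 beside -0.04 for all genes tested. Ltf differed by -2.54 on the log2 scale (SE 1.21, adjusted p = 0.293 in edgeR), Lcn2 -1.91 (SE 0.94, adjusted p = 0.304) and Ngp -1.89 (SE 0.92, adjusted p = 0.302). Mmp8 had -1.82 (SE 1.46, adjusted p = 0.516), S100a9 -1.68 (SE 1.14, adjusted p = 0.440), Camp -1.40 (SE 0.88, adjusted p = 0.408) and S100a8 -1.27 (SE 0.99, adjusted p = 0.503). Retnlg had -1.07 (SE 1.69, adjusted p = 0.763) and Chi3l3 -0.97 (SE 0.90, adjusted p = 0.578). The standard errors are near 1 on the log2 scale, so differences of the sizes seen were not resolved with 3 libraries a sort.

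When the pair of libraries was fitted as a block, edgeR called 156 of 2463 genes (6.33%) and again 0 of the 9. The block narrowed the errors of the latest genes most, as Mmp8 stood at -1.59 (SE 0.50, adjusted p = 0.0846) and Retnlg -1.02 (SE 0.42, adjusted p = 0.162). Ltf, at -1.69 (SE 0.76, adjusted p = 0.1995), joined them under an unadjusted p of 0.05, which 24.9% of all genes had. DESeq2 called 270 genes, of which 172 were lower in CD44+ (6.98% of those tested), and 0 of the 9, with Ngp at an unadjusted p under 0.05. In edgeR without the filter on low counts, Ltf and Mmp9 were lower in CD44+ beside 333 of 16925 genes (1.97%). CD44- library 3 set much of the spread. Without it, 8 of 10 tested genes of the set had an unadjusted p under 0.05, against 15.9% of all genes. The median log2 difference of the 10 was -2.33, and still 0 passed the adjusted threshold. With any other single library left out, 0 of the tested genes of the set had an unadjusted p under 0.05. Most transcripts of these genes lay in the same few wells, so the 8 are not independent results. Tests were made on libraries that may share animals, so these p-values measure only the spread between libraries, which may be technical.

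**Figure D2:**
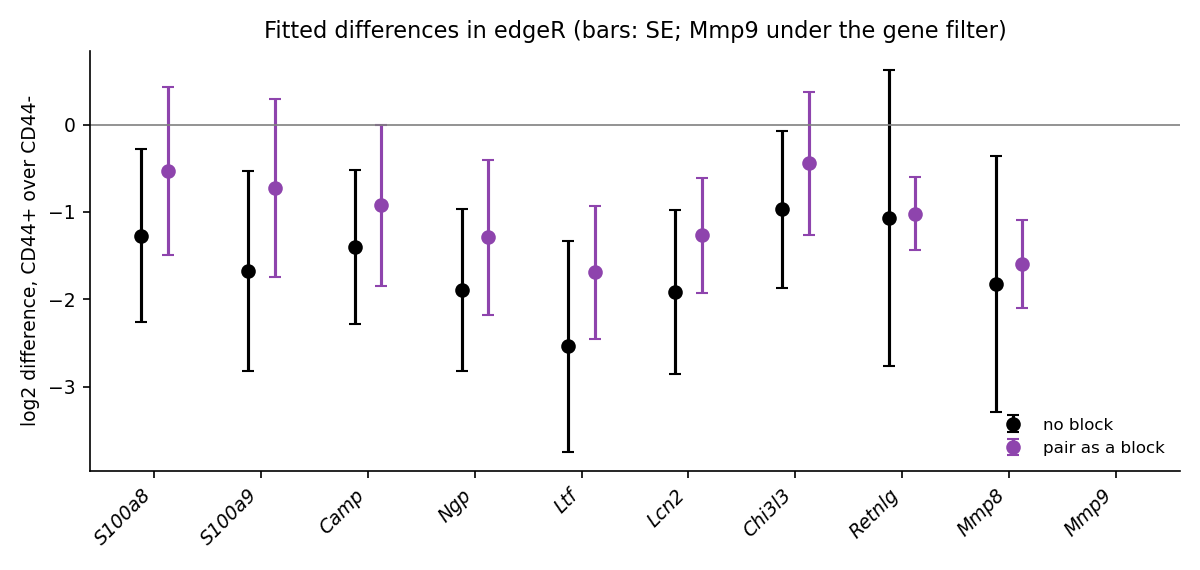
Fitted log2 differences of CD44+ over CD44- for the 9 tested genes, with the SE as bars, without a block (black) and with the pair of libraries as a block (purple). All points lie below 0, the bars of Retnlg and Mmp8 shorten with the block, and no gene passed an adjusted p of 0.05 in either fit.

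The share of cells with a transcript was compared next, after each kept well was thinned to 1000 transcripts to give all wells the same depth. S100a8 was found in 16.1%, 18.9% and 16.1% of wells in CD44+ libraries 1 to 3, against 29.5%, 87.0% and 35.1% in CD44- libraries 1 to 3. The sorts did not overlap, with means of 17.0% ± 1.65 in CD44+ and 50.5% ± 31.7 in CD44- (SD, n = 3). The exact permutation p, two-sided, was 0.1, the smallest that 3 against 3 allows, and 0.902 adjusted over the 2463 tested genes. Camp (10.9% ± 0.63 against 37.6% ± 20.1), Ngp (16.2% ± 3.75 against 45.3% ± 24.8) and Lcn2 (12.6% ± 5.38 against 35.4% ± 22.5) also had no overlap and the same exact p of 0.1. Of all tested genes, 11.1% had no overlap in either direction and 7.67% had none with CD44+ lower. The mean share was lower in CD44+ for all 10 genes, and for 7 of the 10 without CD44- library 2.

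Depth moved these shares. Without thinning S100a8 was found in 19.6%, 47.4% and 46.0% of CD44+ wells, against 34.1%, 91.7% and 48.6% of CD44- wells, which overlap (exact p = 0.4, two-sided), and of the 4 genes Ngp alone kept an exact p of 0.1. For comparison, 27 kept wells in which at least 1% of transcripts came from early erythroid genes had a median depth of 5569 transcripts. After thinning 3 of them (11.1%) held S100a8 and 4 (14.8%) held S100a9, against 25.4% and 28.1% of all kept wells, whose median depth was 3337. Camp was found in 7.41% of the erythroid wells and 17.8% of all, and Retnlg in 7.41% and 9.36%. Transcripts of the set were thus also found in wells marked by erythroid genes, and a single transcript in a well was not read as expression by its cell. Whether such transcripts came from background, from wells with several cells or from the cell itself was not tested. The erythroid wells came mostly from CD44+, with 9 in library 1 and 14 in library 3, against 3 and 1 in CD44- libraries 1 and 3. Library 2 of each sort held 0 of them, so they and all kept wells differ in their mix of libraries. After thinning S100a8 was found in 16.1% of all wells in both CD44+ library 1 and CD44+ library 3, but in 87.0% in CD44- library 2. Without thinning S100a8 was found in 2 of the 9 and 4 of the 14 in CD44+, and in 2 of the 3 and the 1 in CD44-, too few to give a share for CD44- alone.

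Levels in kept wells were then set against the wells below 1000 transcripts on the same rows. The sums were 4907, 11038 and 7945 CPM in kept CD44+ wells and 26950, 36650 and 958 CPM in kept CD44- wells, against 10575, 5630 and 10661 CPM in the CD44+ wells below the minimum and 28228, 8844 and 3473 CPM in the CD44- wells below it. Kept wells were higher in library 2 of each sort and lower in the other 4 libraries. The log2 ratio of kept over background averaged -0.07 ± 1.41 (SD, n = 6 libraries). For single genes the mean log2 ratios ran between -0.51 for Lcn2 and 0.85 for Mmp8. No gene passed the exact sign-flip test over the 6 libraries, two-sided, in which the lowest p in the set was 0.3125 (Lcn2 and Chi3l3). That test reached its smallest possible p of 0.03125 for 5.81% of the 2463 genes and called 0 of them after adjustment.

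The transcripts were concentrated in few wells. Of 33130 transcripts of the 10 genes in kept wells, 50% lay in 4 wells and 90% in 16, while 75 kept wells held none. A single CD44+ well of library 3 held 7341 of them, 22.2% of the total, among 30719 transcripts in all. S100a8 had 50% of its 9067 transcripts in 4 wells and 90% in 14, and Camp had 50% of its 4656 in 3 wells and 90% in 13. Lcn2 was the most spread, with 50% of its 1442 transcripts in 5 wells and 90% in 25. After thinning to equal depth 50% of the sum lay in 9 wells.

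The share of a well's transcripts that came from the 10 genes split the kept wells. It was between 5.83% and 37.5% in 22 wells, 2% to 5% in 3 wells with a highest value of 4.61%, and at most 1.501% in the others. Wells with at least 5% and at least 10 transcripts of the set are called rich here, a limit set after the shares were seen, so what follows about them is a description. At limits of 2% and 10% the number of rich wells would be 25 and 20. The 22 rich wells held 93.1% of the set's transcripts and 4.11% of all transcripts in kept wells. By gene the share in rich wells ran between 78.2% for Mmp8 and 94.7% for Camp. Median depth was 3368 transcripts in rich wells and 3337 in the other kept wells, and 2 of the 22 were of low quality.

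Rich wells were found in both sorts. They numbered 2 of 56, 5 of 95 and 6 of 87 in CD44+ and 7 of 44, 2 of 24 and 0 of 37 in CD44-. As shares these are 3.57%, 5.26% and 6.90% in CD44+ and 15.9%, 8.33% and 0% in CD44-, with exact 95% binomial intervals of 0.435% to 12.3%, 1.73% to 11.9% and 2.57% to 14.4% in CD44+ and 6.64% to 30.1%, 1.03% to 27.0% and 0% to 9.49% in CD44-. The intervals cover counting error only, and those of the sorts overlap within each pair. For the 0 of 37 in CD44- library 3, the rule of 3 counts gives a limit of 8.11%, a little under the upper end of its exact interval.

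The other kept wells carried a low level that differed between libraries. The median share of the 10 genes in them was 0%, 0.0402% and 0.00876% in CD44+ and 0.0958%, 0.882% and 0.0745% in CD44-. CD44- library 2 stood apart, in that 20 of its 22 other wells held S100a8, and its wells below the minimum also had a median share of 0.585% while those of every other library had 0%. This library gave the 87.0% for S100a8 after thinning. Without rich wells the fitted log2 difference of CD44+ over CD44- was -1.47 for S100a8 and -2.22 for Ngp (adjusted p = 0.505 and 0.174 in edgeR), with 6 genes of the set tested and 0 called among 39 of 2414.

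Rich wells were also present below the transcript minimum. There were 12, 0 and 2 of them in CD44+ and 18, 0 and 0 in CD44-, so 30 of the 32 were on the plates with a single sort. They had a median of 367 transcripts and a median share of 12.7% from the 10 genes. These 32 wells held 66.0% of the set's 3265 transcripts below the minimum. With rich wells left out on both sides, the mean log2 ratio of kept over background was -1.98, against -0.07 with them.

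**Figure D3:**
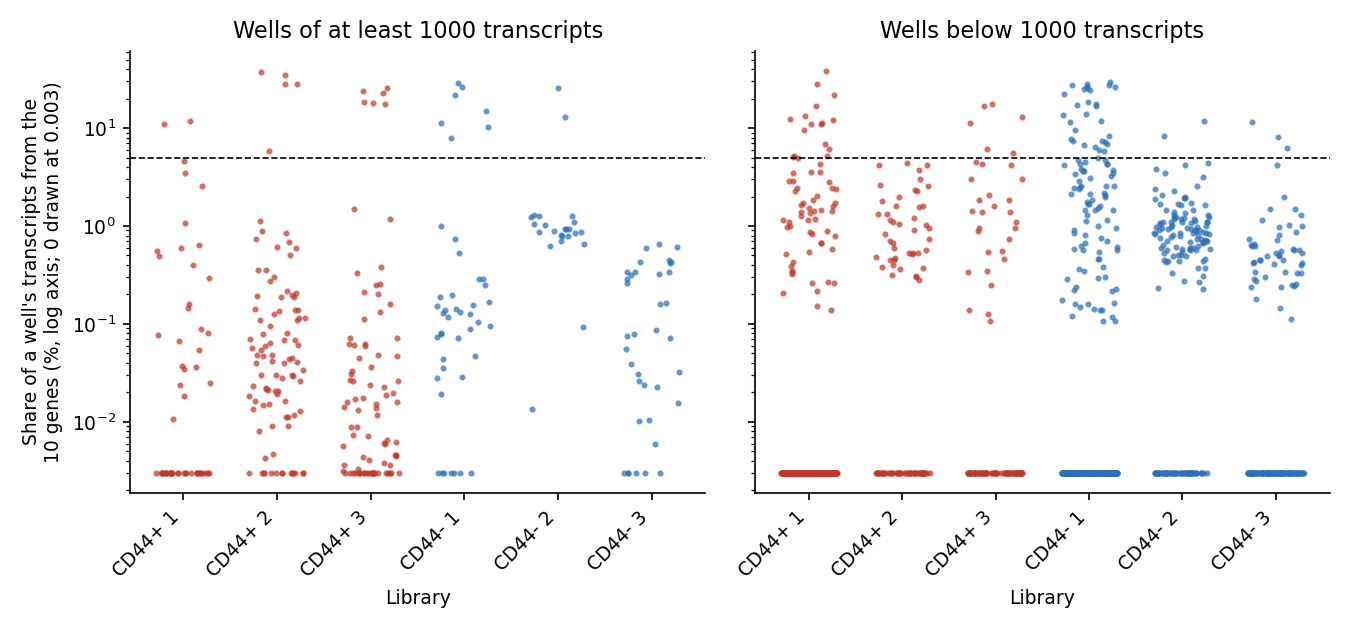
Share of each well's transcripts that came from the 10 genes, in percent on a log axis with 0 drawn at 0.003, for kept wells (left) and wells below 1000 transcripts (right) by library, CD44+ in red and CD44- in blue. Above the dashed line at 5% lie the 22 rich kept wells and, on the right, the 32 rich wells together with wells that reach 5% on fewer than 10 transcripts. The cloud near 1% in CD44- 2 has a median of 0.882% over its other kept wells.

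Within the rich wells the 10 genes fell into groups. In 14 of the 22 the latest genes, Retnlg, Mmp8 and Mmp9, gave under 5% of the set's transcripts (median 0.0136%, highest 4.95%). In these wells Camp, Ngp, Ltf and Chi3l3 gave 32.7% to 84.1% (median 42.5%). In the other 8 the latest genes gave 5.88% to 24.7%, and Camp, Ngp, Ltf and Chi3l3 gave 0% to 33.3% (median 8.28%). Calprotectin was present in every rich well, at 9.48% to 65.3% of the set's transcripts in the 14 wells and 52.9% to 86.9% in the 8. The limit of 5% was set after the values were seen, and wells lay close to it on both sides, at 4.95% and 5.88%. S100a8 and S100a9 gave 27.4% and 30.1% of the sum that defined rich wells, so their presence there was largely set by that rule. The shares are parts of a single total, so a higher share of the latest genes lowers the others in part by arithmetic.

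Single wells show the range. The well with most transcripts of the set, in CD44+ library 3, held 2053 of S100a8, 1903 of S100a9, 1590 of Camp and 1355 of Ngp, beside 2 of Retnlg and 0 of Mmp8 and Mmp9. A CD44+ well of library 2 held 683 of S100a8, 860 of S100a9 and 208 of Retnlg, but 11 of Camp and 3 of Ltf. A CD44+ well of library 1 held 32 of S100a8, 54 of S100a9 and 26 of Retnlg with 0 of Camp, Ngp, Ltf and Chi3l3. At the other end, a CD44+ well of library 3 held 75 of Camp and 72 of Ngp beside 9 of S100a8 and 13 of S100a9. A CD44+ well of library 2 with 723 of S100a8 and 563 of Ngp also held 93 of Retnlg and 73 of Mmp8, so the groups meet in some wells.

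Both kinds of rich well occurred in both sorts. Of the 14 wells with few of the latest transcripts, 1, 1 and 6 were in CD44+ libraries and 5, 1 and 0 in CD44- libraries 1 to 3. Of the 8 with more, 1, 4 and 0 were in CD44+ and 2, 1 and 0 in CD44-. All 6 rich wells on the plate of libraries 3 were thus of the first kind, which goes with the low Retnlg, Mmp8 and Mmp9 of that plate. Below the minimum 20 of the 32 rich wells were of the second kind, 9 in CD44+ library 1 and 11 in CD44- library 1.

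**Figure D4:**
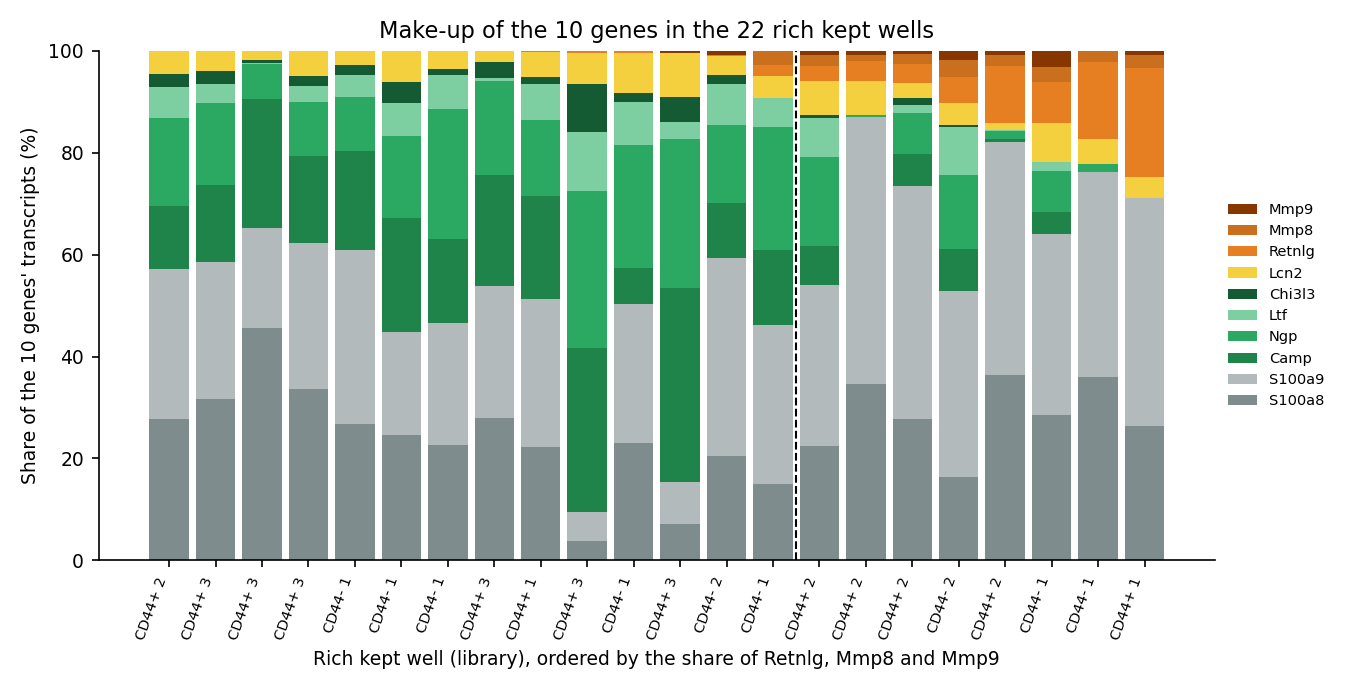
Make-up of the 10 genes in each of the 22 rich kept wells, as percent of the set's transcripts in that well, ordered by the summed share of Retnlg, Mmp8 and Mmp9 (orange and brown). Left of the dashed line are 14 wells with under 5% of these genes and 32.7% to 84.1% of Camp, Ngp, Ltf and Chi3l3 (green), and right of it are 8 wells with 5.88% to 24.7% of them.

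Correlations across wells are given as a description. Over the 343 kept wells, on log2 transcripts per 1000, Pearson's r was 0.95 for S100a8 with S100a9, 0.93 for Camp with Ngp, 0.78 for Retnlg with Mmp8 and 0.80 for Mmp8 with Mmp9. It was 0.29 for Camp with Retnlg and 0.17 for Chi3l3 with Mmp8. By rank the groups were less distinct, with Spearman's rho of 0.60 for S100a8 with S100a9, 0.52 for Camp with Ngp, 0.40 for Retnlg with Mmp8 and 0.41 for Mmp8 with Mmp9, beside 0.41 for S100a8 with Retnlg and 0.30 for Camp with Retnlg. Within the 22 rich wells S100a8 and S100a9 remained at 0.88 and Camp and Ngp at 0.91, while Camp with Retnlg was -0.66 and Chi3l3 with Retnlg -0.63. These points share libraries and depths, and the rich wells were chosen on the sum of the same genes.

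Co-detection was counted at equal depth. After thinning S100a8 and S100a9 were found together in 61 of 342 wells, against 24.4 wells that the product of their shares gives. Camp and Ngp were together in 43 wells against a product of 14.6, and Retnlg and Mmp8 in 10 against 1.78. Pairs across the groups also exceeded the product, as Camp and Retnlg were together in 16 wells against 5.71 and S100a8 and Mmp9 in 8 against 2.29. None of the 10 genes was found in 172 wells, a single gene in 71 and at least 7 genes in 20, of which 18 were rich wells.

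**Figure D5:**
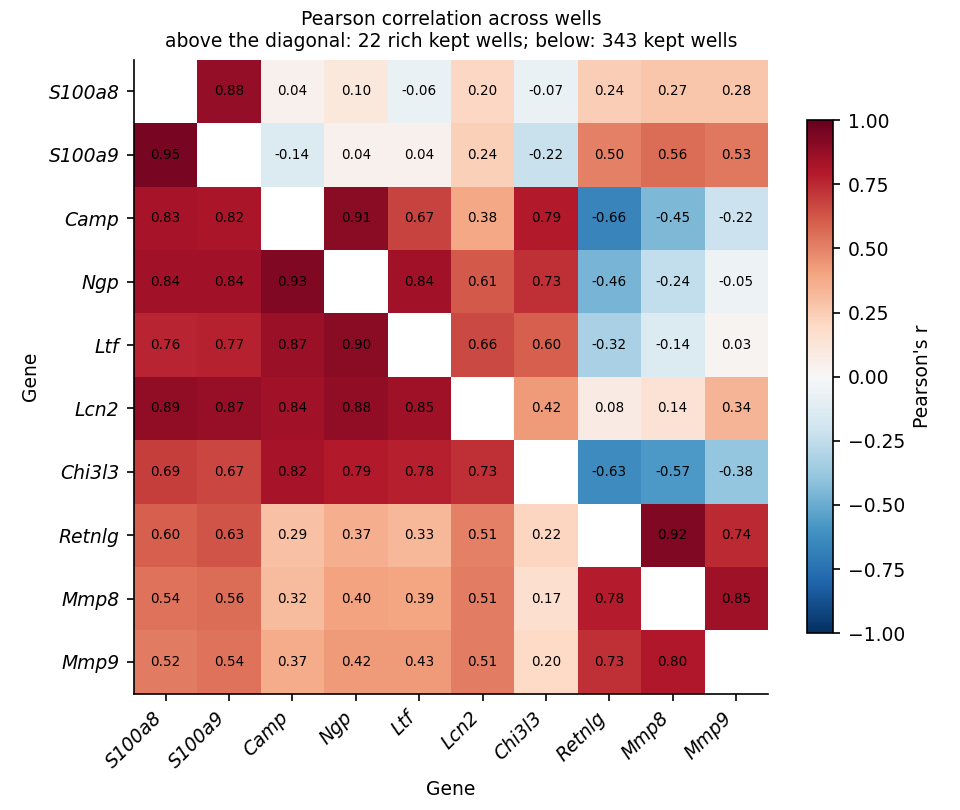
Pearson's r between the 10 genes across wells, on log2 transcripts per 1000, over all 343 kept wells (below the diagonal) and within the 22 rich kept wells (above it). Over all kept wells the values lie between 0.17 and 0.95, and within rich wells Camp and Chi3l3 stand at -0.66 and -0.63 with Retnlg.

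Among 9707 genes with at least 20 transcripts, those most like the summed set across the 343 kept wells, apart from its members, were 1100001G20Rik (now Wfdc21, r = 0.78), Pglyrp1 (0.76), Cybb (0.68), Anxa1 (0.68) and Itgam (0.67). Itgb2l (0.65), Lyz1 (0.63), Ncf1 (0.62), Adpgk (0.61) and Pygl (0.60) followed. Pglyrp1 encodes a peptidoglycan-binding granule protein, Cybb and Ncf1 are subunits of the phagocyte NADPH oxidase, and Itgam is the integrin CD11b. Rich wells held 93.5% of the 307 transcripts of 1100001G20Rik and 83.4% of the 278 of Pglyrp1, but 32.6% of the 2133 of Lyz1.

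As a list, primary granule genes were not gathered in the rich wells, and whether they share wells with one another was not tested. Of 12 kept wells in which they gave at least 1% of transcripts, 2 were rich, beside 22 of all 343 kept wells. The rich wells, with 4.11% of all transcripts in kept wells, held 5.59% of the 6785 transcripts of 6 primary granule genes, at 2769 CPM in rich wells and 2004 CPM in the others. They held 20.7% of the transcripts of Ms4a3, 22.2% of Prss57, 12.3% of Elane and 4.97% of Prtn3, against 2.20% of Mpo and 1.11% of Ctsg. In CD44+ library 3 the well with most late transcripts also held 168 primary granule transcripts and another rich well 119. Of the 6 genes 4 were tested between the sorts and 0 were called, with 3 log2 differences above 0 and a median of 0.83. Mpo (myeloperoxidase) stood at 0.98 (SE 0.72, adjusted p = 0.484 in edgeR), Prtn3 (proteinase 3) 0.89 (SE 0.74, adjusted p = 0.528) and Elane (neutrophil elastase) -0.50 (SE 0.79, adjusted p = 0.762).

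A list of 30 other neutrophil genes, 27 of which had a row, had 42.8% of 6195 transcripts in the rich wells. Genes of the list differed widely in this. Cd177, a surface protein of neutrophils, had 91.2% of its 102 transcripts there, and Fcnb, which encodes ficolin B, 92.0% of 226, both picked for their high values. Cybb had 53.6% of 824 there. Cxcr2, a chemokine receptor, had 4.92% of 691, near the 4.11% of all transcripts that rich wells held. Of the list 10 genes were tested between the sorts, 9 with a log2 difference below 0 and a median of -1.57, and 0 were called. Hp (haptoglobin) had -3.22 (SE 0.87, adjusted p = 0.117 in edgeR) and Anxa1 (annexin A1) -1.84 (SE 0.55, adjusted p = 0.141). With the block edgeR called these 2 genes lower in CD44+, beside 113 of all 2463 tested genes. Hp had -3.09 (adjusted p = 0.00298) and Anxa1 -1.76 (adjusted p = 0.0174). Hp differed from the set in where it lay, as 9.86% of its 1331 transcripts were in rich wells and its highest level was 3343 CPM in CD44- library 3. Between the sorts without the block, Cybb had -1.57 (SE 0.68, adjusted p = 0.259 in edgeR) and Cxcr2 0.15 (SE 1.14, adjusted p = 0.960).

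Transcription factors of the lineage were sparse. Cebpe, which drives secondary granule genes, had 52 transcripts, 84.6% of them in 7 rich wells. Cebpa had 2.20% of 91 transcripts in rich wells, Cebpb 9.43% of 106, Cebpd 29.4% of 92, Gfi1 28.6% of 35 and Sfpi1, which encodes PU.1, 23.4% of 286. Sfpi1 alone was tested between the sorts, at -0.78 on the log2 scale (SE 0.94, adjusted p = 0.686 in edgeR).

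Markers of other cells were read in the same wells. Monocyte genes gave 812 CPM in rich wells and 691 CPM in the other kept wells. Ly6c2 alone carried this, with 629 against 191 CPM. Every other gene of the list was lower in rich wells, as F13a1 had 14.6 against 153 CPM and Irf8 73.1 against 128 CPM. Of 6 tested genes 0 were called between the sorts, with Ly6c2 at -0.07 (SE 1.13), F13a1 at 0.83 (SE 0.95) and Irf8 at -0.85 (SE 0.69). Their adjusted p in edgeR were 0.984, 0.669 and 0.521. Early erythroid genes gave 271 CPM in rich wells against 5025 CPM in the others, B progenitor genes 124 against 805 CPM and stromal genes 1057 against 2135 CPM. Late erythroid genes gave 6214 against 3132 CPM, and 2 of the 22 rich wells held 557 and 270 of their transcripts, both in CD44- library 1. Across libraries the summed stromal list was 100, 895 and 631 CPM in CD44+ and 4090, 8974 and 22482 CPM in CD44-, so CD44- library 3, lowest in the late neutrophil genes, was highest in stromal genes. Of 4 tested stromal genes 3 were called lower in CD44+ without the block, beside 24 of all 2463 tested genes. The early erythroid list was 5431, 2594 and 6987 CPM in CD44+ and 1136, 790 and 1658 CPM in CD44-. These did not overlap, and 16.8% of all tested genes had CD44+ above CD44- without overlap. Of its 5 tested genes edgeR called 0 without the block and 4 higher in CD44+ with it, beside 43 of all 2463 genes with it. The part of these lists in the levels of the set was not tested.

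Wells with the same number on different plates carry the same cell barcode. On the single-sort plates the CD44+ plate had 14 rich wells, and the CD44- well of the same number was rich in 1 case and held a transcript of the set in 9 (64.3%), against 36.5% of the other CD44- wells. The CD44- plate had 25 rich wells, and the CD44+ well of the same number was rich in 1 case and held a transcript in 18 (72.0%), against 21.2% of the other CD44+ wells. On the shared plates these shares were 57.1% against 47.2% for 7 rich wells on the plate of libraries 2, and 100% against 67.3% for 8 on the plate of libraries 3. The part of this in the low levels outside rich wells was not tested.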

How the data were processed

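Per the labels' protocols, marrow was digested with dispase (1 mg/mL) and collagenase IV (2 mg/mL), and single cells were sorted into oil and sequenced by SORT-seq with 75 bp paired ends. The authors deposited expected counts, transcripts estimated from molecular identifiers per gene and well with no scaling. BWA 0.7.15 and mm10 are named in the submitters' processing notes; no counter, annotation or strand setting is given in the sources used here. All values (100%) returned to whole numbers within 0.011 when a correction for 4096 identifiers was undone, which is inferred from the values; it added 2.32% to the sums.

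Wells were numbered in row order, 16 rows by 24 columns, so that wells 1 to 192 of a shared plate were CD44+ and 193 to 384 CD44-. The row order is not stated in the labels. Transcripts of kept wells were added up within a library and rounded. The quasi-likelihood test of edgeR 4.0.16 (TMM, filterByExpr, R 4.3.3) compared 3 libraries per sort, two-sided with Benjamini-Hochberg adjustment at 0.05. The SE is the absolute log2 difference divided by the square root of F. The edgeR fit was also run on simulated libraries with planted changes. Their spread was fixed by hand and not taken from the 10 genes. The simulation therefore does not show how well differences in this set are resolved. DESeq2 1.42.0 was an alternative. Whole counts were planned as the unit; the rounded sums stand in for them. Shares of wells were taken after thinning to 1000 transcripts in 342 wells (1 kept well had fewer whole identifiers), compared by exact permutation tests; their p-values, and those of the exact sign-flip tests of kept against background wells, were adjusted over all 2463 tested genes rather than over the set. Log2 ratios of single genes within pairs added 10 CPM to each value. No doublet caller was run. Wells above the 99th percentile were left out in an alternative.

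Deviations from the sort mean correlated at 0.45, 0.31 and 0.32 for same-numbered libraries and between -0.35 and 0.08 for the others, in part by arithmetic; with the shared plates, the numbers were taken to pair the libraries. The 10 genes and all lists were chosen with earlier results of these data known. All 10 genes are named; other genes are the 10 most like the sum, the called genes of the neutrophil and monocyte lists and the 3 with most transcripts of each, while Cebpa, Cebpe, Gfi1, Cd177 and Fcnb were chosen after their values were seen. Wfdc21, Mcemp1 and Spi1 were matched by RefSeq synonyms; Ly6g, Olfm4 and BC100530 were not analysed here. Promoters are from RefSeq and positions from GENCODE vM21.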

Additional observations from a re-analysis of the deposited data

How the results depend on the processing

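No gene of the set was called between the sorts except without a filter on low counts, where 2 were lower in CD44+: Ltf (log2 difference -2.11, adjusted p = 0.00182 in edgeR) and Mmp9 (-2.56, adjusted p = 0.000785). That setting tests 16925 genes and moves the median of all genes to 0.41. Of 176 refitted log2 differences 1 changed sign, that of Chi3l3 at 0.27 after thinning to 1000 transcripts. The cause was not tested. Adjusted p ranged between 0.215 and 0.928 for S100a8, 0.105 and 0.823 for Ngp and 0.0846 and 0.935 for Mmp8.

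Over all genes, calls numbered 25 in the comparison without a block, 156 with the replicate block (72.4% lower, against 96% without it), 270 with DESeq2 (63.7% lower), 476 without a filter, 161 on shared plates only, 56 without wells of low quality, 41 from wells of at least 500 transcripts, 39 without rich wells, 5 without wells above the 99th percentile and 0 of 510 after thinning (38 at an unadjusted p under 0.05). Leaving out a single library gave 0 to 115 calls, 115 without CD44- replicate 1 and 0 otherwise in edgeR, with 337 to 663 genes at an unadjusted p under 0.05. Without the top well of each library, the block called 89 genes and 0 of the set.

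The log2 ratio of the summed level stood between -1.998 and -0.81 without each library in turn, at -0.61 after thinning, and at 0.45 per kept well, the setting that reverses it. The kept over background ratio was -0.49 to 0.28 without each library in turn. It was -1.98 without rich wells, a removal that is not equal on both sides. Wells holding 50% of the sum numbered 9 after thinning. Genes with a lower mean share in CD44+ numbered 7 to 10. Mmp9, with 0 to 57 transcripts in a library, did not pass the filter on low counts. Leaving out rich wells, using all wells and the limits of 2% and 10% were chosen after seeing the data.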
